A study of Mus musculus with 12 samples.

Results

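Integrins, laminins and collagen IV are the cell surface receptors and the structural chains through which an epithelial cell meets its basement membrane. The genes described here are all protein-coding genes in the count files whose mouse gene name is Itga followed by a number or a single letter, Itgb followed by a number, Lama, Lamb or Lamc followed by a number, or Col4a1 to Col4a6. This rule gave 44 of the 55416 genes in the files, namely 18 integrin alpha genes, 9 integrin beta genes, 11 laminin genes and 6 collagen IV genes. Itgb3bp, which begins with the same letters but encodes a protein that binds an integrin tail, was left out. Their levels were compared between inner hair cells (IHCs) and outer hair cells (OHCs), the 2 sensory cell types of the organ of Corti, at postnatal day 0 (P0). There were 6 libraries of sorted IHCs and 6 of sorted OHCs, each made from a pool of cochleae of several pups of both sexes, so that no value belongs to 1 animal. The genotype of all 12 libraries is labelled WT. IHCs were sorted by Atoh1-GFP, and OHCs by Atoh1-GFP and Insm1-GFP-Cre together with R26-TdTomato, the red reporter that Cre from the Insm1 locus switches on. The red label therefore marks a history of Insm1 expression.

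An integrin is a pair of 1 alpha and 1 beta chain that spans the membrane. Outside the cell it binds matrix proteins or receptors on other cells, and inside it is joined to actin through adaptor proteins such as talin and kindlin. Laminins are cross-shaped trimers of an alpha, a beta and a gamma chain, and they form the first sheet of a basement membrane. Collagen IV trimers form a second sheet, and the chains are made from genes that sit head to head in pairs on 3 chromosomes. In the cochlea a basement membrane lies under the sensory epithelium and is touched by supporting cells more than by hair cells. Further basement membranes surround the capillaries and the Schwann cells of the cochlear nerve. Integrin alpha 8 paired with beta 1 is known from the apical surface of hair cells, where the hair bundle grows.

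Counts on genes ranged from 31490204 to 44017309 per IHC library and from 29564827 to 39121988 per OHC library. All 6 IHC markers examined, Otof and Brip1 having the highest CPM, were called higher in IHCs, and 5 of 6 OHC markers, led by Efna5 and Bcl11b, were called higher in OHCs (the exception was Ikzf2, with a log2 fold change of -0.40 and an adjusted p of 0.84 in edgeR). Insm1, one of the OHC markers, drives the reporter by which OHCs were sorted. The paper reports markers such as Brip1 as enriched from the same RNA-seq, so these calls are not an independent check of the pools. IHC replicate 1 stood apart in its scaling factor of 0.4863 (the other 11 libraries had 0.9018 to 1.226). Levels are given as CPM (counts scaled to a common library size) on the scaled library size, and log2 fold changes are those of OHCs over IHCs, so that negative values mean higher in IHCs. Between genes, levels are compared only as CPM per kb of exon. In pools of sorted cells, fewer cells of a type and less RNA per cell cannot be told apart.

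Of the 44 genes, 27 had enough counts to be tested, 11 had counts but fell under the filter, and 6 had 0 counts in all 12 libraries. With the edgeR quasi-likelihood test and an adjusted p under 0.05 (Benjamini-Hochberg over all genes tested), 3 members were higher in IHCs, namely Itgal, Itgb2l and Lama1. Over all 13269 genes tested, 3.81% were called higher in IHCs. The collagen IV chain gene Col4a1 was the 1 member called higher in OHCs, beside 2.44% of all genes tested. The other 23 tested members were not called. In both directions together this makes 14.8% of the tested members and 6.26% of all genes tested. The median log2 fold change of the 27 was -0.28, and that of all genes tested was -0.04. For Itgal, Itgb2l and Lama1 every IHC library lay above every OHC library, which held for 2.37% of all genes tested.

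**Figure D1:**
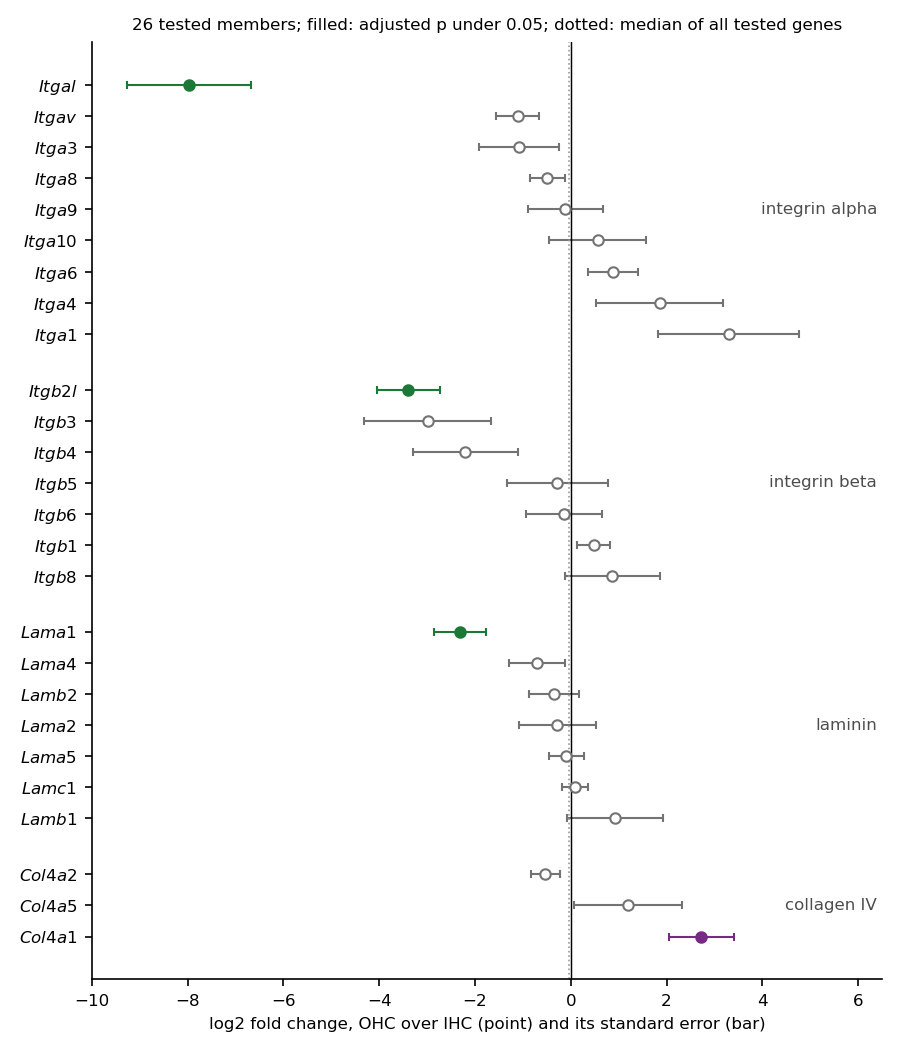
Log2 fold change (OHC over IHC, x axis) of 26 of the 27 tested members, in order within each family, with bars for the standard error. The filled points are the 4 members called by edgeR at an adjusted p under 0.05, and the dotted line is the median of all genes tested at -0.04. Itgal lies at -7.97, Itgb2l at -3.39 and Lama1 at -2.31, on the IHC side, and Col4a1 lies at 2.73 on the OHC side.

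The 3 members called higher in IHCs are genes on 3 different chromosomes, and the bases just upstream of their starts are shown here because these are the genes on which the IHC side of the comparison rests. Each run is the 250 bases before the start of the Ensembl canonical transcript in GENCODE vM39, read from the GRCm39 genome 5′ to 3′ on the strand of the gene. The capitals mark matches, on either strand, to the CCAAT box (CCAAT), the GC box (GGGCGG) or the TATA box (TATAAA), and none of these bases is an annotated exon. Itgal starts at 126895432 on the plus strand (window chr7:126895182-126895431), Itgb2l at 96244841 on the minus strand (window chr16:96244842-96245091) and Lama1 at 68004223 on the plus strand (window chr17:68003973-68004222).
Itgal: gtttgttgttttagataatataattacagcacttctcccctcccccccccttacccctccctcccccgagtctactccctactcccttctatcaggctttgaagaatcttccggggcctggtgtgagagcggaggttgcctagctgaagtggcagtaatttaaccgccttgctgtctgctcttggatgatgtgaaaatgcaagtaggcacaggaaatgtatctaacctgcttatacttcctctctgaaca
Itgb2l: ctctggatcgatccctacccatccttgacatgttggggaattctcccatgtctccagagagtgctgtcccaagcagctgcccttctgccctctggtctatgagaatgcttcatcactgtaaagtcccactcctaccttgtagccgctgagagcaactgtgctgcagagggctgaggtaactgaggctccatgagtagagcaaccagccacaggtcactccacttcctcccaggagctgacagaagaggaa
Lama1: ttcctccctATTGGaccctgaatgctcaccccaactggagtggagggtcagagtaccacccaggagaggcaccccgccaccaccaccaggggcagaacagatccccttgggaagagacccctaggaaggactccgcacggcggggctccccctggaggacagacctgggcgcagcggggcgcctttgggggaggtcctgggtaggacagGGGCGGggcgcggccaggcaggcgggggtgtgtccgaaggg
The Lama1 window held 1 CCAAT match on the opposite strand and 1 GC box, with 68.8% G and C. The windows of Itgal and Itgb2l held no match to any of the 3 motifs, with 48.8% and 54.4% G and C. Over the same window of all 21770 protein-coding genes, 36.5% held a CCAAT match, 36.3% a GC box and 11.9% a TATA match. Over the 44 members the counts were 11, 18 and 3. These matches describe letters and were not tested against expression.

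Among the integrin alpha genes, Itgal was higher in IHCs and no other tested alpha gene passed the threshold. Itgal encodes the alpha L chain of LFA-1, the integrin with which leukocytes bind other cells through ICAM proteins. It had 1.65 CPM in the lowest IHC library, a median of 9.10 CPM and 23.9 CPM in the highest. In OHCs it had 0 counts in 4 of 6 libraries, and the highest of the other two was 0.145 CPM, from 5 counts. The groups did not overlap, and the log2 fold change was -7.97 (SE 1.30) with an adjusted p of 0.000732 in edgeR. As nearly all OHC counts were 0, the size of this fold change depends on the prior count of the fit, and the group means of 10.2 ± 8.32 CPM in IHC pools and 0.0378 ± 0.0619 CPM in OHC pools (SD, n = 6 each) are the plainer description.

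The beta chain partner of Itgal and 4 further alpha chain genes of leukocyte integrins had no counts. Itgb2, which encodes the beta 2 chain that pairs with alpha L, had 0 counts in all 12 libraries. So had the alpha chains Itgad, Itgam and Itgax, which pair with the same beta chain, and Itgae, the alpha chain of the integrin that binds E-cadherin. Itgam shares 67.4% of its exon bases with Gm49368 on the same strand, so that reads there cannot be separated from those of that gene and its 0 cannot be read like the others. At 29564827 counts or more per library, a count of 0 allows up to 3 counts, or 0.0995 CPM on average in IHC libraries and 0.0825 CPM in OHC libraries, and these limits cover counting error only. The ligand genes Icam1 and Icam2 reached at most 0.0272 and 0.923 CPM in any library. Of 12 markers of leukocytes and macrophages, 7 had 0 counts in all libraries (Cx3cr1, C1qa, C1qc, Tyrobp, Fcer1g, Aif1 and Adgre1). Ptprc, the pan-leukocyte marker CD45, was at 0 in all OHC libraries and reached 1.83 CPM in the highest IHC library with a median of 0. The summed level of the list was 33.9 to 62.4 CPM in IHC pools and 68.5 to 168 CPM in OHC pools, and it was made up mainly of Laptm5, which was called higher in OHCs. C1qb, a complement gene of macrophages and next in level, lay on the other side, with 1.49 to 19.6 CPM in IHC pools and 0.0872 to 5.47 CPM in OHC pools. In 4 of 6 IHC libraries it was above all OHC libraries, and its log2 fold change of -2.17 (SE 0.93) had an unadjusted p of 0.0305 and an adjusted p of 0.177 in edgeR. Cd68, a macrophage marker of the same list that was not tested, went the other way. It was at 0.152 to 12.8 CPM in OHC pools and at most 0.126 CPM in IHC pools. The part of such cells in the values of Itgal was not tested.

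Per length and averaged over both cell types, Itga6, Itga8 and Itga3 had the highest levels of the alpha genes, and in OHCs alone Itga9, at 1.12 CPM per kb, lay beside Itga3 at 1.09. Itga6 encodes the alpha chain of the main laminin receptors, which pairs with beta 1 or beta 4. It had 3.43 ± 3.81 CPM per kb in IHCs and 6.36 ± 3.02 in OHCs (SD, n = 6 each). In CPM it ran from 7.39 through a median of 29.0 to 125 in IHCs and from 32.8 through 67.7 to 135 in OHCs. IHC replicate 5, at 125 CPM, lay far above the next IHC library at 34.6 CPM, which itself lay just above the lowest OHC library. The log2 fold change was 0.89 (SE 0.52), with an adjusted p of 0.34 in edgeR, and without that library it was 1.71 with an adjusted p of 0.0266.

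Itga8, whose product pairs with beta 1 and binds nephronectin, had 4.32 ± 1.96 CPM per kb in IHCs and 3.08 ± 1.04 in OHCs. It ran from 21.5 through 41.6 to 82.8 CPM in IHC pools and from 15.7 through 33.5 to 50.9 CPM in OHC pools, and the log2 fold change of -0.49 (SE 0.36) was not called (adjusted p 0.453, edgeR). Both cell types thus carried Itga8 reads in every library. Itga3, another laminin receptor chain, had 2.30 ± 1.77 CPM per kb in IHCs and 1.09 ± 0.749 in OHCs. Its lowest library was at 0.464 CPM in IHC pools and 0.20 CPM in OHC pools, against highest values of 26.5 and 13.4 CPM, so the spread within each group was wider than the difference between them (log2 fold change -1.08, SE 0.83, adjusted p 0.479 in edgeR). Between Itga6 and Itga8, the difference in mean level per length was smaller than either SD in IHCs and larger than either SD in OHCs.

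Itgav and Itga1 had an unadjusted p under 0.05 and did not pass the threshold. Itgav encodes the alpha V chain, which binds fibronectin, vitronectin and latent TGF-beta. It had 9.48 to 45.7 CPM in IHC pools (median 24.4) and 6.59 to 15.2 CPM in OHC pools (median 11.9), with a log2 fold change of -1.11 (SE 0.45) and an adjusted p of 0.149 in edgeR. Itga1, a collagen receptor chain, had a median of 0.0244 CPM in IHC pools and 1.80 CPM in OHC pools. Of the 6 IHC libraries, 5 were at or below 0.131 CPM and IHC replicate 4 was at 2.07 CPM, while OHCs ran from 0.0872 to 10.1 CPM. The log2 fold change was 3.30 (SE 1.47, adjusted p 0.194, edgeR), and it was 6.82 with an adjusted p of 0.0162 without IHC replicate 4. Itga1 shares 10.2% of its exon bases with Mocs2 on the other strand, and the strand setting of the counting is not given in the sources used here.

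The remaining tested alpha genes were Itga9, Itga10 and Itga4, with log2 fold changes of -0.11, 0.56 and 1.86 and adjusted p of 0.955, 0.792 and 0.442 in edgeR. Without IHC replicate 2 the log2 fold change of Itga4 was 6.06, with an adjusted p of 0.0107 in edgeR, and without OHC replicate 1 that of Itga10 was -0.89. Itga9 encodes a receptor chain for tenascin-C. It ran from 1.59 to 22.8 CPM in IHC pools and from 2.76 to 27.6 CPM in OHC pools, and the ranges covered each other. Itga4 pairs with beta 1 or beta 7 and shares 20.8% of its exon bases with Cerkl on the other strand. Itga10 shares 33.5% of its exon bases with Gm42957 on the same strand, so that reads lying wholly within those bases cannot be assigned to either gene.

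There were 5 alpha genes with counts that were not tested, and in 2 of them, Itga2 and Itga5, all OHC libraries lay above all IHC libraries. Among all genes with counts that were not tested, 1.53% showed this pattern, and over the 4 families it was seen in 3 of 11 members. That background holds every untested gene with at least 1 count in any library. It was not matched for level, so the 2 shares cannot be compared directly. Itga2 encodes the alpha 2 chain, a collagen and laminin receptor. It had 0 counts in all 6 IHC libraries and 5 to 378 counts in OHCs, that is 0.167 to 10.3 CPM with a median of 1.89 CPM. Against the limit of 3 counts per IHC library, the OHC mean of 3.91 CPM was at least 39.2-fold higher. Itga5, the alpha chain of the classical fibronectin receptor, had at most 0.101 CPM in any IHC library and 0.152 to 9.99 CPM in OHC pools with a median of 1.22 CPM. For Itga5 the lowest OHC library had 5 counts and the highest IHC library had 4, so the groups were barely apart. The highest OHC library was replicate 3 for both genes. Itga11 had medians of 0.0384 CPM in IHC pools and 0.187 CPM in OHC pools and overlapped. Itga2b, the platelet alpha IIb chain, and Itga7, the alpha chain of muscle laminin receptors, did not exceed 3 counts in any library.

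Among the integrin beta genes, Itgb2l was higher in IHCs. Itgb2l, also known as pactolus, is a gene closely related to Itgb2 that was described in neutrophils. It had 15.5 CPM in the lowest IHC library, a median of 22.6 and 47.2 in the highest. In OHCs it had 0.274, 2.93 and 4.31 CPM in the lowest, middle and highest. All 6 IHC libraries lay above all 6 OHC libraries, with a log2 fold change of -3.39 (SE 0.65) and an adjusted p of 0.0029 in edgeR, which is 10.5-fold. Only 79 bases of its exons, or 1.82%, overlap Igsf5 on the other strand. Per length, Itgb2l had 6.14 ± 2.97 CPM per kb in IHCs and 0.586 ± 0.391 in OHCs.

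Itgb1, the beta chain that most matrix-binding alpha chains pair with, had 5.05 ± 2.31 CPM per kb in IHCs and 7.04 ± 0.811 in OHCs. In CPM it ran from 11.4 through 27.2 to 46.8 in IHCs and from 34.4 through 43.7 to 46.4 in OHCs, and the log2 fold change of 0.48 (SE 0.35) was not called (adjusted p 0.448, edgeR). In IHCs the mean levels per length of Itgb2l and Itgb1 differed by less than either SD. With the longest transcript in place of the union of exons they were 9.41 ± 4.55 and 5.85 ± 2.67 CPM per kb, a difference larger than the SD of Itgb1. In OHCs Itgb1 lay above Itgb2l in all libraries. As a share of the summed level per length of the 9 beta genes, Itgb2l had a median of 37.7% in IHCs (20.7% to 82.3%) and 6.89% in OHCs (0.617% to 10.1%). The share of Itgb1 was 38.8% in IHCs (14.4% to 45.1%) and 74.2% in OHCs (65.6% to 78.4%).

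The other beta genes had lower levels. Itgb4, the partner of alpha 6 in hemidesmosomes, came next per length when both cell types were averaged, with 1.30 ± 1.68 CPM per kb in IHCs and 0.283 ± 0.355 in OHCs. In OHCs alone Itgb6, Itgb2l, Itgb5 and Itgb8 had higher means, and without IHC replicate 6 the IHC level of Itgb4 was 0.733 CPM per kb. It ran from 0.458 to 29.9 CPM in IHC pools and from 0.20 to 6.28 CPM in OHC pools, and its log2 fold change of -2.20 (SE 1.10) had an adjusted p of 0.252 in edgeR. Itgb4 shares 14.9% of its exon bases with Galk1 on the other strand. Itgb3, the partner of alpha V and alpha IIb, had an unadjusted p of 0.0365 and an adjusted p of 0.195 in edgeR. Its level was 0.227 to 9.34 CPM in IHC pools (median 3.03) and 0 to 1.77 CPM in OHC pools (median 0.0802), with a log2 fold change of -2.99 (SE 1.33). Of 8 platelet and megakaryocyte markers, Pf4, Gp1bb, Ppbp, Gp6 and Treml1 were at 0 in all libraries, the highest CPM were those of Gp1ba and Gp5, and the summed level was 0 to 2.85 CPM in IHC pools and 0.0291 to 0.823 CPM in OHC pools.

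Itgb5, Itgb6 and Itgb8, which pair with alpha V, had log2 fold changes of -0.28, -0.14 and 0.87, with adjusted p of 0.909, 0.939 and 0.652 in edgeR. Each of them was detected in all 12 libraries, and their ranges overlapped. Itgb7, the partner of alpha 4 and alpha E, was not tested, with 0 counts in 4 of 6 IHC libraries and 3 of 6 OHC libraries. Summed per length, the 9 beta genes came to 8.48 to 21.0 CPM per kb in IHCs (median 15.3) and 7.63 to 11.1 in OHCs (median 9.77), and the 18 alpha genes to 11.5 to 23.4 in IHCs (median 15.1) and 12.3 to 18.7 in OHCs (median 14.6).

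**Figure D2:**
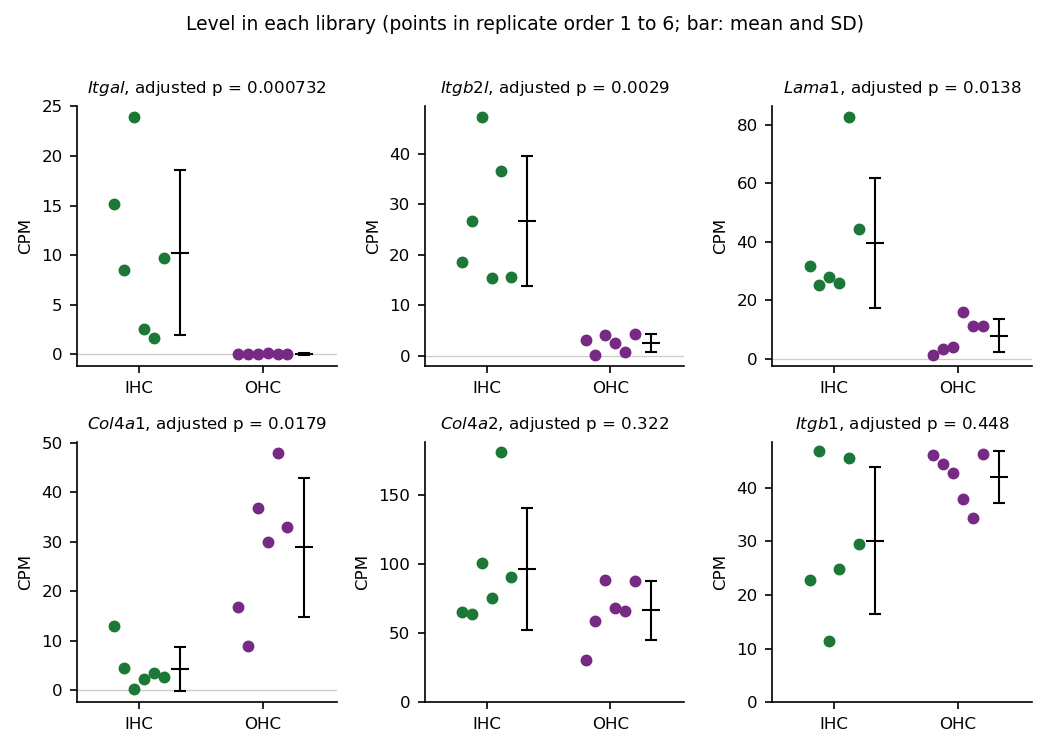
CPM of the 4 called members and, for comparison, of Col4a2 and Itgb1 in each library (y axis from 0, linear), with IHCs in green and OHCs in purple, points in replicate order and bars for the mean and SD of 6 libraries. Itgal, Itgb2l and Lama1 have no overlap between the groups, whereas for Col4a1 the IHC library at 13 CPM lies above the OHC library at 9.02 CPM.

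Of the laminin genes, Lama1 was higher in IHCs and the other 7 tested genes were not called. Lama1 encodes the alpha 1 chain, which is the laminin alpha chain of the early embryo and of a few adult epithelia. It had 25.2 CPM in the lowest IHC library, a median of 29.8 and 82.5 in the highest, and 1.51, 7.69 and 16.1 CPM in the corresponding OHC libraries. The groups did not overlap, and IHC replicate 5 stood above the other IHC libraries, of which the next was at 44.3 CPM. The log2 fold change was -2.31 (SE 0.54, adjusted p 0.0138, edgeR), which is 4.96-fold, and without IHC replicate 5 it was -1.98.

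Lama5, the alpha chain of the laminins of most mature epithelia and vessels, had the highest mean level per length of the alpha chains, with 8.14 ± 6.68 CPM per kb in IHCs and 7.66 ± 2.12 in OHCs. It ran from 47.0 through 65.4 to 247 CPM in IHC pools and from 52.7 through 89.3 to 126 CPM in OHC pools, and its log2 fold change was -0.09 (SE 0.36, adjusted p 0.916, edgeR). The value of 247 CPM was that of IHC replicate 1, and without that library the log2 fold change was 0.48. Of the summed level per length of the alpha chain genes, Lama1 made up a median of 27.4% in IHCs (13% to 59.2%) and 7.41% in OHCs (1.28% to 16.2%). Lama5 made up 47.1% in IHCs (28.7% to 85.2%) and 74.8% in OHCs (64.9% to 90.2%), and for both chains IHC replicate 1 was the 1 IHC library that lay within the OHC range.

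Lama2 and Lama4, the alpha chains known from muscle and Schwann cells and from vessels, had log2 fold changes of -0.28 and -0.70, with adjusted p of 0.874 and 0.514 in edgeR. Lama4 was at 5.89 to 33.1 CPM in IHC pools and 2.07 to 23.0 CPM in OHC pools. Lama2 was at 1.24 to 26.5 CPM in IHC pools and 0.934 to 33.5 CPM in OHC pools. Lama3, the alpha chain of the laminin that anchors skin, was not tested. It was at or below 0.55 CPM in all IHC libraries, with a median of 0.0972 CPM and a highest value of 8.71 CPM in OHC pools, which belonged to replicate 3.

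No gamma or beta chain gene was called. Lamc1, the gamma chain of most laminins, had 7.49 ± 3.74 CPM per kb in IHCs and 7.98 ± 1.26 in OHCs. It ran from 51.3 through 72.4 to 167 CPM in IHC pools and from 73.1 through 89.3 to 112 CPM in OHC pools, with a log2 fold change of 0.09 (SE 0.28, adjusted p 0.881, edgeR). Its mean level per length differed from that of Lama5 by less than the SD of either gene, but with the longest transcript as length the OHC means were 11.4 ± 1.80 for Lamc1 and 7.66 ± 2.12 CPM per kb for Lama5. Lamb2, with 3.18 ± 2.11 CPM per kb in IHCs and 2.50 ± 1.53 in OHCs, had the higher level per length of the 2 detected beta chains, with a median of 96.3% of the beta chain level in IHCs and 85.7% in OHCs. Its log2 fold change was -0.35 (SE 0.53, adjusted p 0.747, edgeR).

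Lamb1, the other widespread beta chain, ran from 0.262 through 1.47 to 16.4 CPM in IHC pools and from 1.02 through 3.40 to 28.0 CPM in OHC pools. In both groups 1 library stood far above the rest, namely IHC replicate 1 and OHC replicate 3, where Lamb1 made up 52.5% and 54.5% of the beta chain level per length. The log2 fold change was 0.93 (SE 1.0, adjusted p 0.625, edgeR), 2.53 without IHC replicate 1 and -0.35 without OHC replicate 3. Lamb3, a beta chain of epithelial laminins, had 0 counts in all 12 libraries. Lamc3 was not tested, with 4 OHC and 2 IHC libraries above 0.

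Of the 3 tested collagen IV genes, Col4a1 was higher in OHCs. With Col4a2, its product forms the common collagen IV trimer of 2 alpha 1 chains and 1 alpha 2 chain. Col4a1 had 0.34 CPM in the lowest IHC library, a median of 3.08 and 13 in the highest. In OHCs it had 9.02, 31.5 and 47.9 CPM. Of the 6 OHC libraries, 5 lay above all IHC libraries, and the overlap was due to IHC replicate 1 at 13 CPM and OHC replicate 2 at 9.02 CPM. The log2 fold change was 2.73 (SE 0.67, adjusted p 0.0179, edgeR), or 6.64-fold, and it was 3.44 without IHC replicate 1.

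Col4a2 was not called, with 64.2, 83.2 and 181 CPM in IHC pools and 30.8, 67.1 and 88.1 CPM in OHC pools. Its log2 fold change was -0.53 (SE 0.30, adjusted p 0.322, edgeR). Per length, Col4a2 had 13.4 ± 6.10 CPM per kb in IHCs and 9.27 ± 2.95 in OHCs, and Col4a1 had 0.586 ± 0.596 in IHCs and 3.87 ± 1.88 in OHCs. Within a library, the ratio of Col4a1 to Col4a2 per length had a median of 0.0287 in IHCs (0.00323 to 0.192) and 0.412 in OHCs (0.147 to 0.7), and the ranges met through the same 2 libraries. In no library was Col4a1 above Col4a2 per length.

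The 2 genes lie head to head on chromosome 8 in GRCm39, with Col4a1 at 11248423 to 11362826 on the minus strand and Col4a2 at 11362471 to 11499287 on the plus strand. Their canonical starts lie 317 bases apart and overlap, and 311 exon bases are shared, which is 4.17% of Col4a1 and 4.33% of Col4a2. Reads in that stretch cannot be assigned to either gene without strand. Col4a3 and Col4a4 on chromosome 1 have starts that overlap by 103 bases, and Col4a5 and Col4a6 on chromosome X start 1282 bases apart.

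The other 4 collagen IV genes were low. Col4a5 was tested and not called, with 0 to 1.33 CPM in IHC pools, 0 to 2.59 CPM in OHC pools and a log2 fold change of 1.20 (SE 1.13, adjusted p 0.577, edgeR). Col4a4, next in the family per length when both cell types were averaged but the lowest of the 6 in IHCs, was not tested. It was at 0.214 CPM or less in IHCs, with 0 counts in 3 libraries, and at 0.258, 3.72 and 10.8 CPM in the lowest, middle and highest OHC library, so that the groups did not overlap. Its partner Col4a3 had 7 counts in 1 OHC library, 0 in the other 5 and at most 1.93 CPM in IHC pools. Col4a6 had 15.2 CPM in IHC replicate 5, a median of 0.0992 CPM in IHC pools, and 1 count in all OHC libraries together.

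**Figure D3:**
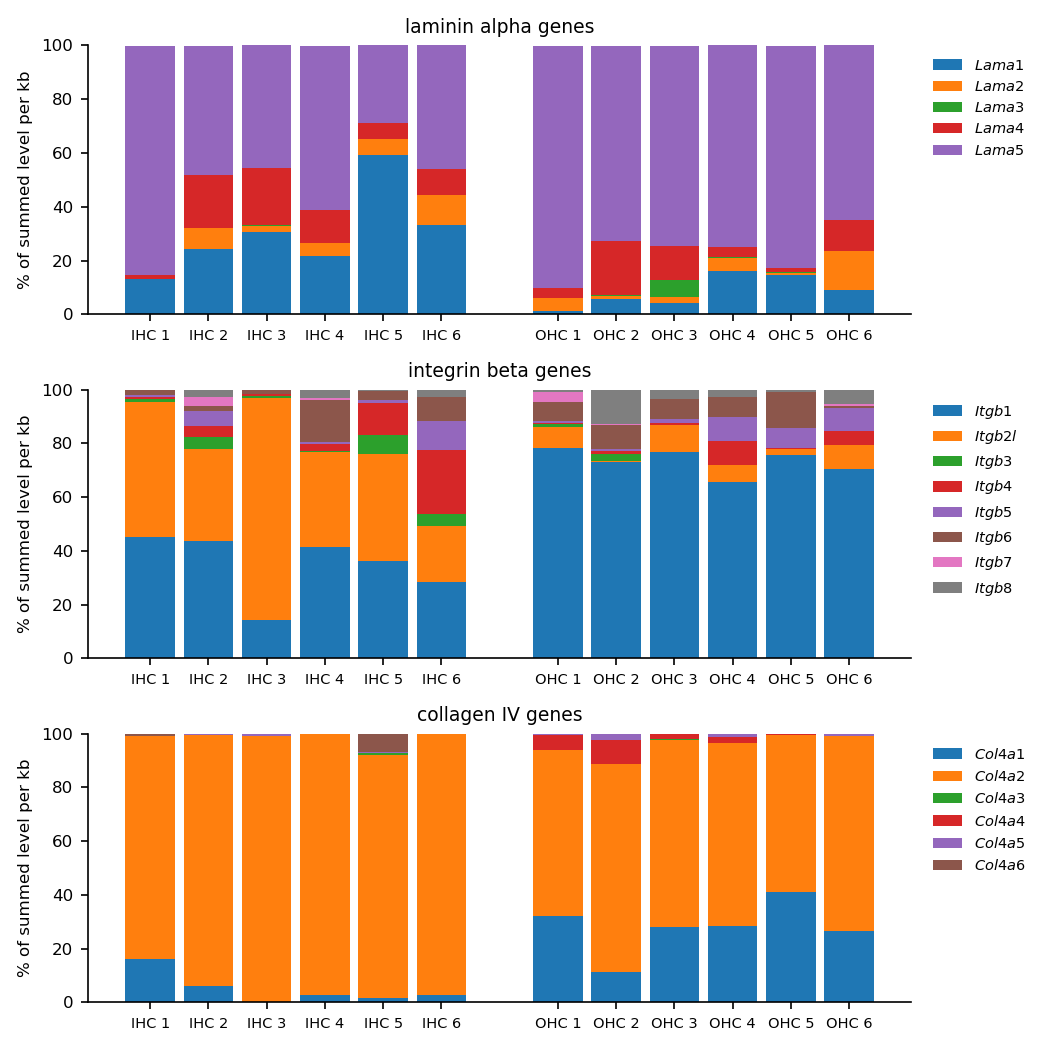
Share of each gene in the summed level per length of its class (percent, y axis from 0 to 100) in each of the 12 libraries, for the laminin alpha, integrin beta and collagen IV genes. In all 6 OHC libraries Itgb1 makes up at least 65.6% of the integrin beta level and Col4a1 at least 11.4% of the collagen IV level, while Itgb2l makes up at least 20.7% in all 6 IHC libraries.

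When the filter was left out, all 38 members with counts were tested among 27488 genes. Then 4 were called higher in IHCs and 4 in OHCs, beside 3.25% and 3.34% of all genes. The members added were Col4a6 in IHCs (log2 fold change -8.35, SE 2.08, adjusted p 0.0146 in edgeR), which rests on IHC replicate 5, and Itga2, Itga5 and Col4a4 in OHCs (log2 fold changes of 10.11, 6.61 and 5.82, with adjusted p of 0.00142, 0.0199 and 0.017 in edgeR). The first of these sizes depends on the prior count, since Itga2 had no count in IHCs.

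Most markers of endothelial cells were higher in OHC pools, as were Col4a1, Col4a4, Itga2 and Itga5. Col4a2, Lama4 and Lama5 were not, with log2 fold changes of -0.53, -0.70 and -0.09 that were not called. Of 20 endothelial markers 15 were tested, and 11 of them were called higher in OHCs and none in IHCs, with a median log2 fold change of 5.37. Robo4, Emcn, Egfl7 and Rasip1 were tested and not called, with log2 fold changes of 4.89, 3.35, 0.19 and -0.92. The summed level of the 20 was 4.03 to 25.0 CPM in IHC pools and 40.3 to 357 CPM in OHC pools, with the highest value in OHC replicate 3. Cdh5 and Pecam1 had the highest CPM, at 3.63 to 47.2 CPM and 0.976 to 27.7 CPM in OHC pools. Of the 20, 5 (Cldn5, Ptprb, Adgrf5, Esam and Ly6c1) had 0 counts in all IHC libraries and none had 0 in all OHC libraries. Their part in the OHC values of Col4a1, Col4a4, Itga2 and Itga5 was not tested. Without OHC replicate 3, the log2 fold change of Col4a1 was 2.62 and was still called. Among the OHC libraries, Col4a1 was highest in replicate 5, where the endothelial sum was 61.2 CPM. Col4a4 was highest in replicate 2, at 10.8 CPM, where the sum was lowest, at 40.3 CPM. Itga2 and Itga5 were highest in replicate 3, where the sum was highest, at 357 CPM.

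**Figure D4:**
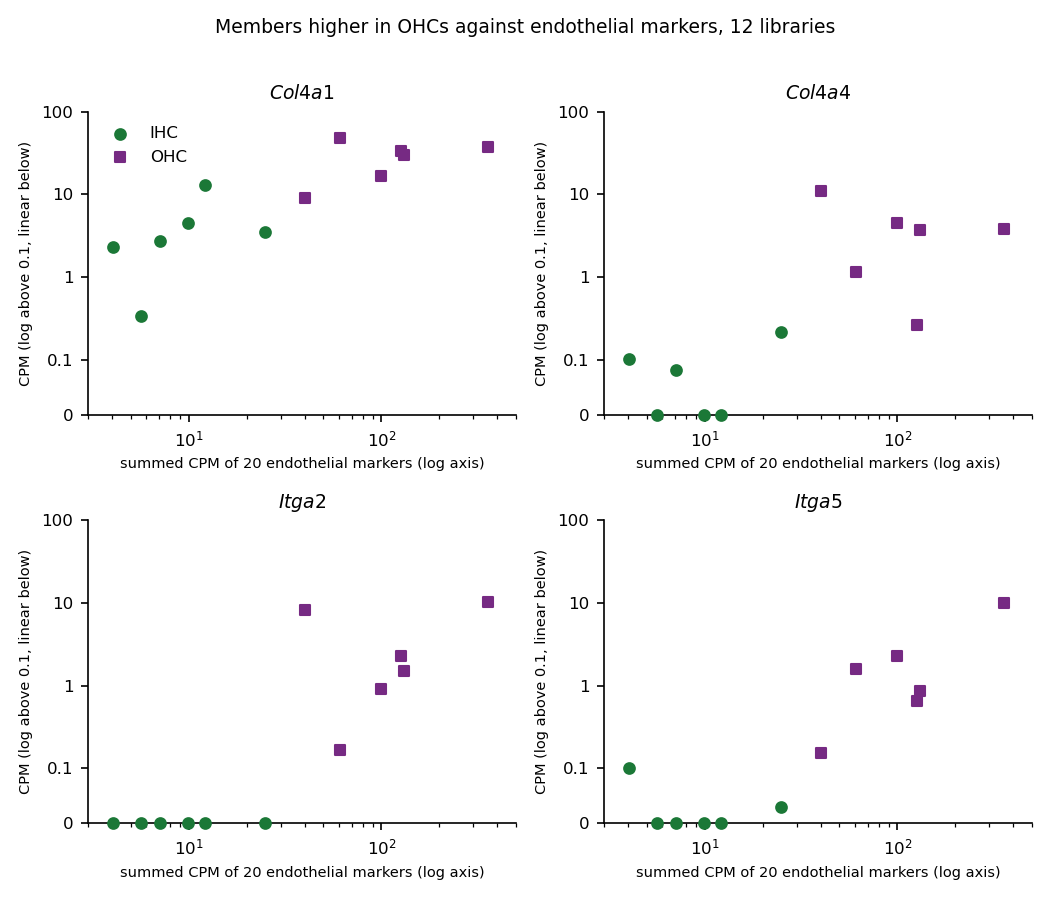
CPM of Col4a1, Col4a4, Itga2 and Itga5 (y axes, logarithmic above 0.1 and linear below) against the summed CPM of 20 endothelial markers (x axes, logarithmic) in 6 IHC libraries (circles) and 6 OHC libraries (squares). The marker sum is at most 25.0 CPM in IHC pools and at least 40.3 CPM in OHC pools, so the cell types are apart on both axes, except for Col4a1 on the y axis.

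Some markers of supporting cells and of the greater epithelial ridge were higher in IHCs, as were Itgal, Itgb2l and Lama1. Of 13 supporting cell markers, all tested, 3 were called higher in IHCs (Gjb2, Rorb and Sox2) and none in OHCs, and the summed level, to which Gjb2 and Jag1 gave most, was 411 to 910 CPM in IHC pools and 115 to 383 CPM in OHC pools. Of 5 ridge markers 2 were tested, and Tecta, which made up nearly all of the summed level, was called higher in IHCs. Other markers of these lists had higher means in OHCs, namely Hes5, Hey1 and Otoa, with log2 fold changes of 1.32, 0.50 and 0.60 that were not called (adjusted p of 0.285, 0.373 and 0.661 in edgeR). Epyc, which was not tested, did not exceed 3 counts in IHCs and was at 0 to 16.1 CPM in OHC pools. The ridge sum was 578 to 1093.9 CPM in IHC pools and 71.8 to 417 CPM in OHC pools. Among the IHC libraries, replicate 5 had the highest Lama1, Lamc1, Itga6 and Col4a2, and it also had the highest supporting cell sum, at 910 CPM. Its marker sums for endothelium, mesenchyme, and leukocytes and macrophages were the highest too, at 25.0, 233 and 62.4 CPM. The ridge, pericyte and Schwann cell sums were highest in IHC replicates 2, 3 and 6, at 1093.9, 47.0 and 37.4 CPM. Itgal was lowest in IHC replicate 5, at 1.65 CPM, and Itgb2l was at 36.6 CPM there. Both Itgal and Itgb2l were highest in IHC replicate 3, at 23.9 and 47.2 CPM, where the supporting cell sum was 515 CPM. The part of these cells in the values of Lama1, Itgb2l and Itgal was not tested.

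The remaining marker lists were those of other cells of the cochlea. Of 12 pericyte and smooth muscle markers 4 were tested and none was called (summed level 10 to 47.0 CPM in IHC pools and 17.8 to 39.3 CPM in OHC pools, mostly Notch3 and Abcc9), with Higd1b at 0 in all libraries. Of 13 mesenchyme markers 7 were tested and none was called (123 to 233 CPM and 147 to 235 CPM, mostly Pdgfra, with Lum next), with Twist2 at 0. The median log2 fold change of these 7 was -1.38, and Pdgfra, at 0.21, was the only one with a positive value. Col3a1 and Lum had -3.15 and -1.96, with adjusted p of 0.0828 and 0.203 in edgeR. Of 8 Schwann cell markers 4 were tested and 2, Egr2 and Gfra3, were called higher in OHCs (14.4 to 37.4 CPM and 8.17 to 59.6 CPM, mostly Egr2 and Erbb3), with Gfra3 at 0 in all IHC libraries and Cdh19 at 0 in all libraries. Of 12 markers shared by hair cells, Myo6 among them, 2 were called higher in IHCs and none in OHCs, with 11291.5 to 17734.2 CPM in IHC pools and 9960.9 to 14002.0 CPM in OHC pools.

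The wider pathway was described by 5 lists, which were not tested as sets. Over all genes tested, 3.81% were called higher in IHCs and 2.44% in OHCs, and the median log2 fold change was -0.04. Of 23 proteins that join laminin and collagen IV in basement membranes or bind laminin at the cell surface, 20 were tested, 1 was called higher in OHCs and none in IHCs, with a median log2 fold change of 0.56. The 1 was Smoc2, a calcium-binding protein of the SPARC family. It was at 6.34, 12.3 and 19.4 CPM in IHC pools and 30.7, 53.1 and 128 CPM in OHC pools, without overlap (log2 fold change 2.25, SE 0.41, adjusted p 0.00199 in edgeR). The highest mean CPM in this list were those of Dag1, which encodes the laminin receptor dystroglycan (448 to 997 CPM in IHC pools and 483 to 591 CPM in OHC pools), and Sparc (281 to 521 CPM and 79.8 to 585 CPM), and neither was called. Npnt, the nephronectin ligand of integrin alpha 8, was at 1.23 to 64.8 CPM in IHC pools and 0.701 to 29.8 CPM in OHC pools.

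Of 32 adaptors that join integrins to actin, 26 were tested, 2 were called higher in IHCs and 2 in OHCs, with a median log2 fold change of 0.02. Tln2, one of 2 talin genes, was at 44.3, 69.8 and 108 CPM in IHC pools and 12.2, 13.1 and 23.7 CPM in OHC pools, and every IHC library lay above every OHC library (log2 fold change -2.21, SE 0.33, adjusted p 0.000313 in edgeR). The other talin gene, Tln1, was at 5.20 to 37.0 CPM in IHC pools and 6.65 to 36.6 CPM in OHC pools and was not called (log2 fold change 0.29, SE 0.56). Actn4, an alpha-actinin that crosslinks actin, was higher in IHCs by a log2 fold change of -1.07 (SE 0.27, adjusted p 0.0218 in edgeR). Ptk2, the focal adhesion kinase, was higher in OHCs by 1.03 (SE 0.26, adjusted p 0.0228 in edgeR), and so was Tgfb1i1, which completes the count, by 2.90 (SE 0.83, adjusted p 0.0426 in edgeR). Zyx, second to Actn4 in CPM, was at 67.0 to 241 CPM in IHC pools and 46.0 to 99.7 CPM in OHC pools and was not called (adjusted p 0.0623, edgeR).

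Of 26 further ligands of integrins, 12 were tested, 1 was called higher in IHCs and 3 in OHCs, with a median log2 fold change of 0.36. Cdh1, the E-cadherin gene, whose product is the ligand of the integrin made by Itgae and Itgb7, was at 10.1, 29.1 and 40.3 CPM in IHC pools and 746, 831 and 1042.5 CPM in OHC pools (log2 fold change 4.98, SE 0.31, adjusted p 1.04e-08 in edgeR). Thbs2, a matricellular thrombospondin, and Mfge8, a ligand of alpha V integrins, were higher in OHCs by 3.90 (SE 0.87) and 2.19 (SE 0.56) on the log2 scale, with adjusted p of 0.00969 and 0.0225 in edgeR and no overlap between the groups. Tgfb2, whose latent forms alpha V integrins can bind, was higher in IHCs by a log2 fold change of -0.95 (SE 0.28, adjusted p 0.0459 in edgeR). Tnc, the tenascin-C ligand of alpha 9 integrin, had the highest CPM, at 2431.9 to 3334.6 CPM in IHC pools and 1963.7 to 2469.7 CPM in OHC pools, and was not called (log2 fold change -0.43, SE 0.15, adjusted p 0.0911 in edgeR). Ibsp had 0 counts in all libraries.

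Of 19 enzymes and transport factors that process collagen IV, 15 were tested and none was called, with a median log2 fold change of 0.24. The highest CPM were those of P4hb, at 129 to 254 CPM in IHC pools and 150 to 264 CPM in OHC pools, and Mia3, at 78.4 to 195 CPM and 75.9 to 191 CPM. Of 17 matrix-degrading enzymes and their inhibitors, 11 were tested and none was called, with a median log2 fold change of 0.14. Mmp24, with the highest CPM, was at 95.7 to 235 CPM in IHC pools and 52.9 to 151 CPM in OHC pools (adjusted p 0.0652, edgeR), and Timp2 followed, at 56.6 to 125 CPM and 41.3 to 78.2 CPM. Mmp7 had 0 counts in all libraries.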

How the data were processed

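RNA from FACS-sorted P0 hair cells was depleted of ribosomal RNA, amplified from random hexamers with the NuGEN Ovation V2 system and sequenced as paired-end reads. For each library, the authors deposited unnormalized read counts by gene. Per the labels and methods, they trimmed reads with Trimmomatic, aligned them to GRCm39 with STAR in 2 passes and assigned them to genes with HTSeq (intersection-nonempty). The versions and the strand setting are not given in the sources used here. The 55416 gene rows were used, and the summary lines that name no gene (24.2% to 46.1% of all counts) were left out. Of the identifiers, 98.8% matched GENCODE vM39, from which gene names, coordinates and the union of exons were taken.

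Counts were filtered with filterByExpr (minimum count 10, minimum total 15), scaled by TMM and tested with the edgeR 4.0.16 quasi-likelihood test (R 4.3.3) over all 12 libraries, with Benjamini-Hochberg adjustment over 13269 genes and a threshold of 0.05. The script was tested on simulated data. Nothing says which pups went into which pool, so p-values measure the spread between pools. CPM were computed on the TMM library size and divided by the union of exons in kb where genes are compared. Alternatives were the edgeR exact test, DESeq2 1.42.0, RLE factors, no filter, at least 10 counts in every library, leaving out the 20 most abundant genes, each library in turn, the replicate number as a block, and the longest transcript as length. The genes and lists were chosen with earlier results of these data known. Members named are those called, those with an unadjusted p under 0.05, the 3 of highest level per length in each family and those at 0. From each pathway list they are the 3 genes of smallest adjusted p among those called and the 2 of highest CPM, and from each marker list the genes at 0 and the 2 of highest CPM. Some genes that these rules take are not reported here. Further genes were named after their values were seen, to complete a count or to give partners of named genes. There were no molecular identifiers, and limits from counts cover counting error only.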

Additional observations from a re-analysis of the deposited data

Results flagged for a closer look

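In 16 of 59 sets of 6 libraries (a tested member, or Itga2, Itga5 or Col4a4, in 1 cell type), 1 library lay farther from the others than Dixon's critical ratio of 0.625 allows. For independent, normally distributed values chance would give about 1 in 20 sets, and the rate for CPM, which are skewed, was not tested. In 15 of them the library was high. IHC replicate 5 accounted for 4: Col4a2 at 181 CPM, Itga6 at 125 CPM, Lama1 at 82.5 CPM and Lamc1 at 167 CPM. IHC replicate 1, which had the smallest scaled library size, accounted for 3: Col4a1 at 13 CPM, Lama5 at 247 CPM and Lamb1 at 16.4 CPM. OHC replicate 3, which had the highest endothelial marker sum, accounted for 2: Lamb1 at 28 CPM and Itga5 at 9.99 CPM. The other IHC values were Itga1 at 2.07 CPM in replicate 4, Itga5 at 0.101 CPM in replicate 4, from 4 counts, and Itga4 at 2.30 CPM in replicate 2. The other OHC values were Itga10 at 21.6 CPM in replicate 1, Itga9 at 27.6 CPM in replicate 5, Lama2 at 33.5 CPM in replicate 6 and Itgb6, the 1 low value, at 0.702 CPM in replicate 6.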

How the results depend on the processing

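Itgal, Itgb2l, Lama1 and Col4a1 kept their direction and their call in every one of the 19 alternatives in which they were tested. With at least 10 counts in every library Itgal and Itgb2l were not tested, since their OHC counts fall below 10, and 1 member was called higher in IHCs in place of 3. Members called higher in OHCs rose from 1 to 4 with DESeq2 and with no filter, and to 2 without the 20 most abundant genes, as Itga2, Itga5 or Col4a4 entered. With DESeq2, 1590 of all 16911 genes tested were called higher in OHCs. With 1 library left out, members called higher in OHCs ranged from 1 to 5 (5 without IHC replicate 2, 4 or 5 and 4 without IHC replicate 1, 3 or 6), members called higher in IHCs from 3 to 3, all genes called from 599 to 950 and pathway genes called from 4 (without OHC replicate 2) to 10, with 5 without IHC replicate 5. All genes called rose from 830 to 1270 with the edgeR exact test, 1811 with no filter and 2929 with DESeq2, which called 18 pathway genes in place of 9. Over the 27 tested members, 480 of 502 alternative values kept direction and call. Called in 1 alternative each were Itga1 without IHC replicate 4 (log2 fold change 6.82), Itga4 without IHC replicate 2 (6.06), Itga6 without IHC replicate 5 (1.71) and Itgav with DESeq2 (-1.10).

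The direction turned for 9 uncalled members. Leaving out 1 library, these ranged from -0.94 to 0.38 for Itga9, -0.89 to 1.35 for Itga10, -0.61 to 0.68 for Itgb5, -0.36 to 0.22 for Itgb6, -1.20 to 0.11 for Lama2, -0.25 to 0.48 for Lama5, -0.35 to 2.53 for Lamb1, -0.67 to 0.06 for Lamb2 and -0.03 to 0.39 for Lamc1. The cause was not tested. Whether the same replicate number in both groups marks pools of the same pups is not known. Between same-numbered libraries, the correlation of deviations from the group means was -0.0313 to 0.0184. Of the 12 libraries, 1 correlated best with its own number. Such correlations cannot tell whether 2 pools shared pups. With the replicate number as a block, all genes called came to 903, the same 3 members were called in IHCs and 1 in OHCs, and the direction turned for Itgb5 (0.75), Itgb6 (0.39) and Lama5 (0.15). With the longest transcript as length, 6 of the levels per length moved by more than their SD (Itgb2l and Itga8 in IHCs, Itga6, Itga8, Itgb1 and Lamc1 in OHCs), and none did with 1 library left out. Members near 3 counts per library (Itga2b, Itga7) are below what this depth can compare.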
